A study of Mus musculus with 21 samples.

Results

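The 6 G protein-coupled receptors that steer B-lineage cells, Ccr7, Cxcr5, Ccr6, Cxcr4, S1pr1 and Gpr183, and the trafficking transcription factor Klf2 were followed across every group of a mouse array series. They were taken as the probe sets whose platform symbol is one of these 7 names. This gave 8 of the 45037 probe sets that are not controls, and 7 of 18193 genes. Gpr183 had 2 probe sets and each other gene had 1. The series holds 21 Affymetrix arrays in 7 groups of 3. In 4 of the groups the material is bone marrow cells sorted for B220, a surface marker of the B lineage. Their donors were wild-type mice, mice with a Cebpb LAP transgene, Blnk knockout mice, and mice with both changes. The other groups are the line LB31, a pre-B acute lymphoblastic leukaemia from 1 Blnk knockout mouse, carrying a pMY retroviral vector. The vector was empty, held Blnk cDNA, or held the loss-of-function Blnk mutant YF, and all LB31 cells were grown with 5 ng/ml interleukin 7. LAP is the activating isoform of C/EBPβ, and BLNK is an adaptor protein of pre-B cell receptor signalling. The promoter of the transgene and the age and strain of the mice are not given in the sources used here. Nothing says that the 3 arrays of a group are from different mice or cultures, so a p-value here reflects array spread that may be purely technical.

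Chemokine receptors guide lymphocytes along gradients of secreted ligands. CXCR4 binds CXCL12 and keeps developing B cells in the marrow niche. CCR7, CXCR5 and CCR6 appear as B cells mature, and place them in lymph nodes, follicles and mucosal tissue. S1PR1 reads sphingosine 1-phosphate, which is abundant in blood, and draws cells out of the marrow and lymphoid organs. GPR183, also called EBI2, reads oxysterols and positions activated B cells at the outer follicle. KLF2 is a zinc-finger transcription factor of resting lymphocytes that is known to regulate S1pr1 and other homing genes, mainly from work in T cells.

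The promoters of the members are shown because these genes differed together between the marrow groups. Of the 7 members, 4 had a promoter in the RefSeq table of build GRCm38.p6, with 5 start sites in all. Each line below is the 250 bases before a start site, 5′ to 3′ on the gene's strand. The Klf2 window is chr8:72318812-72319061 on the plus strand, that of Cxcr4 is chr1:128592300-128592549 on the minus strand, the first one of Ccr6 is chr17:8235793-8236042 on the plus strand, and that of Gpr183 is chr14:121965194-121965443 on the minus strand. Capitals mark matches to the motifs named after the sequences.
Klf2: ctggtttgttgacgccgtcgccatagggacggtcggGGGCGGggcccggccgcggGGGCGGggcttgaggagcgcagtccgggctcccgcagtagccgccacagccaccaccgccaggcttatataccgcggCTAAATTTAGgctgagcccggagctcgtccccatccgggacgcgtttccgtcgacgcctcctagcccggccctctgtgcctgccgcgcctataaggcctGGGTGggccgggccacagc
Cxcr4: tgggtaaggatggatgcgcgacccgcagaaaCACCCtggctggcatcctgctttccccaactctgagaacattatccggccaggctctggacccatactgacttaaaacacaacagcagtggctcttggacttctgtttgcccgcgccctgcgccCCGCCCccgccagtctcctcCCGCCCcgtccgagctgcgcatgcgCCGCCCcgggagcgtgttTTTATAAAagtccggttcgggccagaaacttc
Ccr6: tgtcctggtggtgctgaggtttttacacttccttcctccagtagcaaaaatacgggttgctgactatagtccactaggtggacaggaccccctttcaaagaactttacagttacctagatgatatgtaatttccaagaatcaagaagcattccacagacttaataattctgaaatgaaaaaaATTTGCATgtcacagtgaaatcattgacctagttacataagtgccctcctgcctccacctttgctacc
Gpr183: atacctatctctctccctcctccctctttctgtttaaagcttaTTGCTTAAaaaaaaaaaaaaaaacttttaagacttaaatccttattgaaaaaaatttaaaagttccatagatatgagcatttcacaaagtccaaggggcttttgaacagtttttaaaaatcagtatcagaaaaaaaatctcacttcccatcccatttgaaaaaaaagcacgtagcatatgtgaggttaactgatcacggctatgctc

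A set of 7 motifs was searched on both strands, and they were chosen with these sequences in view. The Klf2 window holds a match to the MEF2 consensus, CTAAATTTAG, from 118 to 109 bases before the start. This consensus reads the same on both strands and occurs in 167 of 32851 promoters of the same length, or 0.508%. Klf2 also holds the GC box GGGCGG at 2 positions and the KLF core CACCC, read as GGGTG, at 1. A GC box occurs in 32.7% of all promoters and CACCC in 52.0%. The Cxcr4 window holds 3 GC boxes, 1 CACCC and the TATA motif TATAAA, whose forward and reverse matches overlap. TATAAA occurs in 12.4% of promoters. The first Ccr6 window holds the octamer ATTTGCAT, a motif of B-cell promoters, from 68 to 61 bases before the start, as do 1.6% of promoters in either orientation. The second Ccr6 start had no match to any of these motifs. The C/EBP-type pattern TTGCNNAA occurs in the Gpr183 window, as TTGCTTAA, and in 9.56% of promoters. The forkhead motif TGTTTAC, found in 3.17% of promoters, was in none of the 5 windows. These matches describe letters, and no binding was measured.

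Arrays were compared as deposited first. The trimmed mean signal ran from 104.4 to 184.2 over the arrays, and replicate arrays correlated with r between 0.963 and 0.980. Levels are therefore given as log2(signal + 4) after quantile normalization of all 21 arrays, with n = 3 arrays per group. Differences within marrow or within LB31 come from those arrays normalized on their own. The dim limit used as a filter, each array's 40th percentile, corresponds to 4.06 on this scale. The Blnk probe set did not follow the labels, at 12.44 ± 0.09 (SD) in wild-type and 12.37 ± 0.24 in knockout marrow. In LB31 it was at 9.63 ± 0.02 with the empty vector, 9.40 ± 0.08 with YF and lowest, at 8.56 ± 0.06, with Blnk cDNA. Where it lies relative to the deleted part or the cDNA is not given, so it checks nothing, and these groups are called knockout-labelled, BLNK-labelled and YF-labelled. Every direction drawn from them rests on the labels. One Cebpb probe set followed the transgene, at 5.43 ± 0.10 in wild-type, 5.02 ± 0.35 in knockout-labelled, 10.05 ± 0.15 in LAP transgenic and 9.90 ± 0.08 in doubly changed marrow. In LB31, whose labels name no transgene, it was as bright, at 10.22 ± 0.10 with the empty vector. The defining B-lineage markers that were measured, Cd79a, Cd79b and Pax5, were above the dim limit on all arrays. All 4 defining neutrophil markers were above it on all marrow arrays too. So were all 3 each for monocytes, megakaryocytes and plasmacytoid dendritic cells. The B220-sorted marrow RNA thus also held these transcripts.

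Among the receptors of mature B cells, Ccr7 stood at 9.21, 9.41 and 9.09 on the wild-type arrays, at 8.53, 8.50 and 8.27 on the LAP transgenic arrays and at 7.17, 7.32 and 7.17 on the knockout-labelled arrays. With both changes it stood at 4.67, 4.45 and 4.39. On the LB31 arrays it lay between 2.36 and 3.23, below the dim limit on all 9. The 4 marrow groups did not overlap, and neither did doubly changed marrow and LB31, whereas the 3 LB31 groups overlapped each other.

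Cxcr5 followed the same order in marrow. Its levels were 9.34, 9.42 and 9.31 in wild-type, 8.47, 8.40 and 8.52 in LAP transgenic and 7.78, 8.04 and 7.76 in knockout-labelled marrow. In doubly changed marrow they were 4.01, 4.06 and 3.30, with 1 of the 3 arrays above its own dim limit. No neighbouring groups overlapped down to this point, and the step from knockout-labelled to doubly changed marrow was the widest gap, at 4.07. The LB31 arrays, between 2.39 and 4.32, overlapped doubly changed marrow.

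Ccr6, the CCL20 receptor, was at 7.73, 7.72 and 7.60 in wild-type, 6.57, 6.49 and 6.53 in LAP transgenic and 5.25, 5.95 and 6.05 in knockout-labelled marrow. Doubly changed marrow gave 4.0, 2.95 and 4.30, again with 1 of 3 arrays above the dim limit. The LB31 arrays spread from 2.97 to 4.85 and overlapped it. Below the knockout-labelled group no order of Ccr6 levels could be read, because the 4 lowest groups overlapped.

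Cxcr4, the marrow retention receptor, stayed bright everywhere. It was at 10.91, 11.00 and 10.83 in wild-type and at 10.88, 10.89 and 10.82 in LAP transgenic marrow, which overlapped. Knockout-labelled marrow gave 10.29, 10.57 and 10.36, and doubly changed marrow 10.02, 10.22 and 10.37. These groups overlapped each other and lay below wild type. In LB31 it was 8.67, 8.37 and 8.48 with the empty vector, 8.94, 9.11 and 9.08 on the BLNK-labelled and 8.74, 8.65 and 8.53 on the YF-labelled arrays. The BLNK-labelled arrays lay above both other vectors, which overlapped.

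S1pr1 was at 7.98, 8.06 and 8.0 in wild-type marrow. LAP transgenic marrow gave 7.60, 6.97 and 7.17 and knockout-labelled marrow 7.07, 7.31 and 6.89, which overlapped and were both below wild type. Doubly changed marrow was lower still at 6.17, 5.35 and 6.22. LB31 ranged from 2.77 to 5.29, below every marrow array, and its 3 groups overlapped.

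Both Gpr183 probe sets were bright enough to test in marrow, but they differed in LB31. The probe set 1437356_at was at 8.25, 8.15 and 7.78 in wild-type, 7.80, 7.87 and 7.87 in LAP transgenic, 6.27, 6.95 and 6.55 in knockout-labelled and 4.35, 4.16 and 4.91 in doubly changed marrow. In LB31 it lay between 2.21 and 3.20, below the dim limit on all arrays. The probe set 1457691_at represents the gene here because its mean over all arrays was the higher, 5.29 against 4.94. That order came from LB31, at 4.90 against 2.54, whereas in marrow 1457691_at was the dimmer, at 5.58 against 6.74. The levels of 1457691_at went from 6.33, 6.18 and 6.17 in wild-type to 5.80, 6.22 and 6.12 in LAP transgenic, 5.12, 5.73 and 5.58 in knockout-labelled and 4.38, 4.59 and 4.70 in doubly changed marrow. Its LB31 arrays, at 4.37 to 5.66, overlapped doubly changed marrow. Which of them tracks the Gpr183 message better was not tested.

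Klf2 was at 11.38, 11.34 and 11.04 in wild-type and at 11.26, 11.34 and 10.84 in LAP transgenic marrow, and these overlapped. It was at 9.44, 9.73 and 9.10 in knockout-labelled and at 7.81, 7.50 and 7.79 in doubly changed marrow. LB31 was lower again, at 6.97, 6.66 and 6.62 with the empty vector, 6.40, 6.33 and 6.39 on the BLNK-labelled and 6.32, 6.50 and 6.43 on the YF-labelled arrays. The empty-vector arrays lay above both of those groups, which overlapped.

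**Figure D1:**
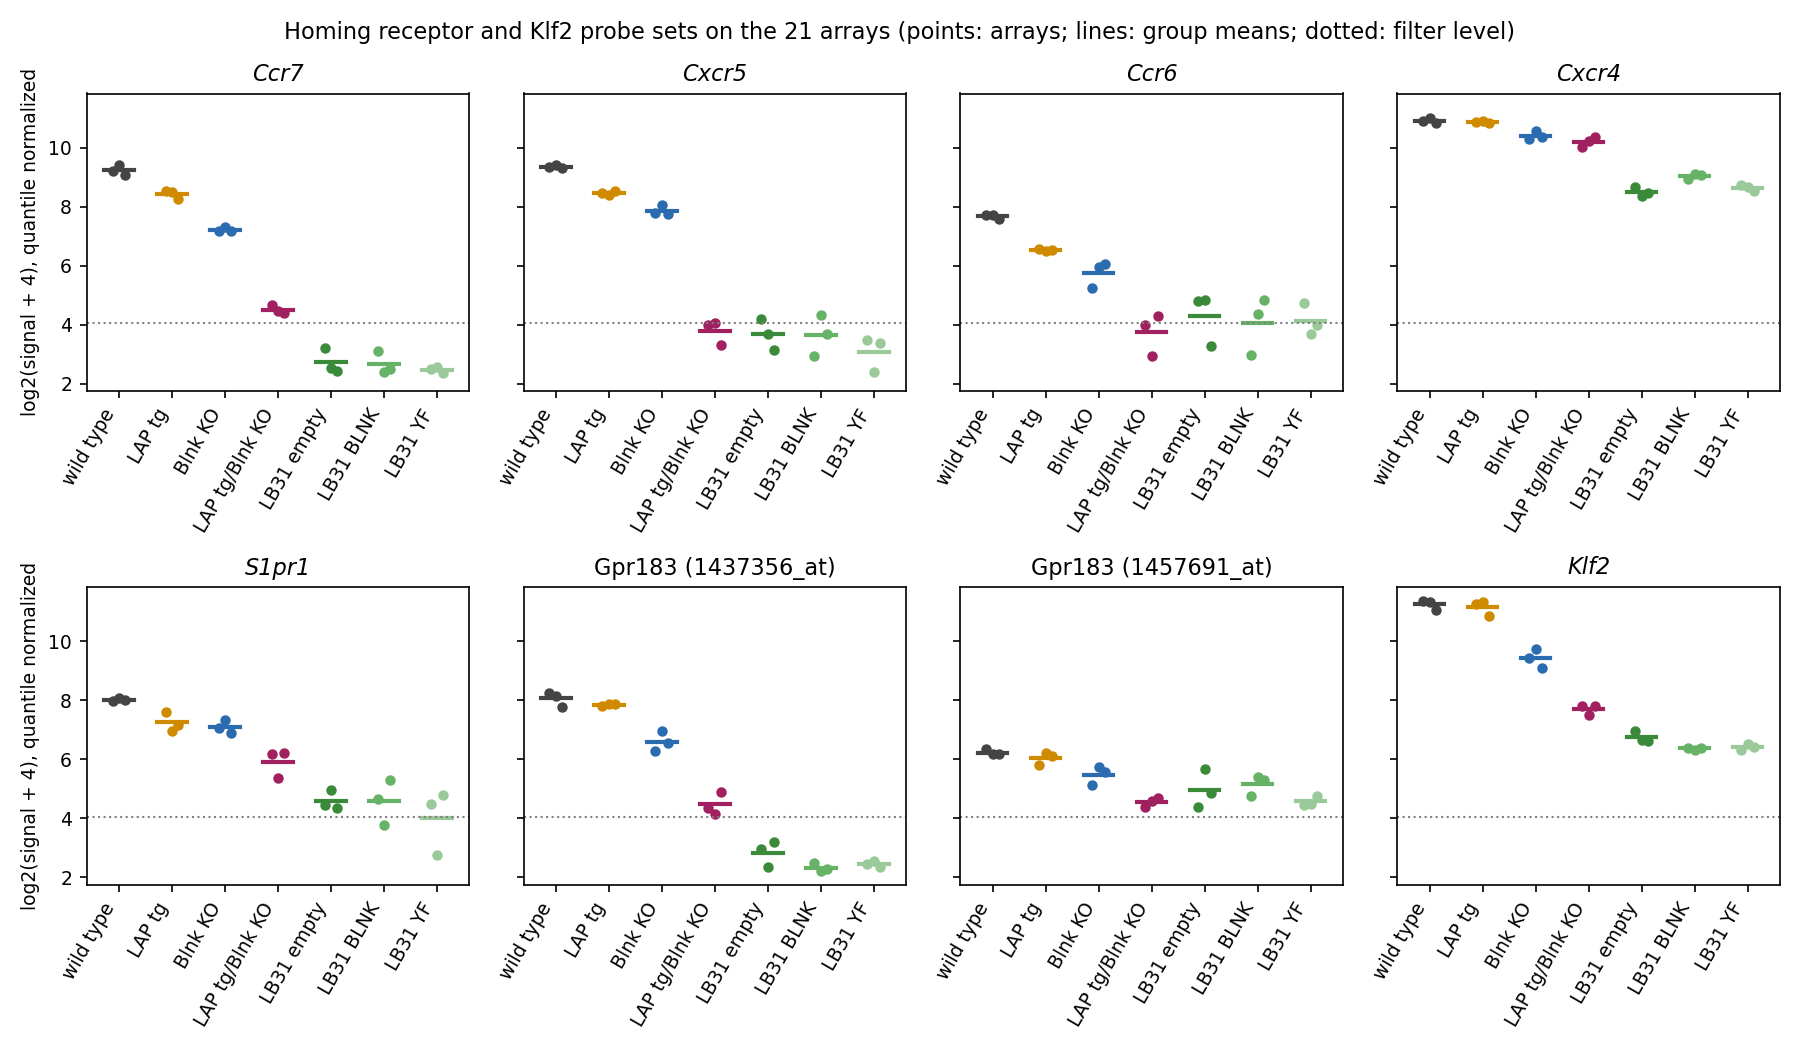
Normalized log2(signal + 4) of the 8 probe sets (vertical axis) on each array of the 7 groups (horizontal axis), with points for arrays, lines for group means and a dotted line at the dim limit of 4.06. Ccr7, Cxcr5 and Klf2 step down from wild-type to knockout-labelled to doubly changed marrow, while Cxcr4 stays above 8.3 on every array.

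The comparison of knockout-labelled with wild-type marrow asks which homing genes differ with the Blnk knockout label. All 7 members were lower in knockout-labelled marrow, where 8.69% of all genes tested were called lower at an adjusted p under 0.05. Ccr7 fell 3.81-fold (-1.93 ± 0.12 SE, adjusted p = 5.71e-07), Ccr6 fell 3.50-fold (-1.81 ± 0.30, adjusted p = 0.00124) and Klf2 fell 3.32-fold (-1.73 ± 0.16, adjusted p = 9.87e-06). Cxcr5 fell 2.70-fold (-1.43 ± 0.18, adjusted p = 0.000106). The exit receptor S1pr1 fell 1.85-fold (-0.89 ± 0.21, adjusted p = 0.0105), and the niche receptor Cxcr4 fell 1.40-fold (-0.49 ± 0.09, adjusted p = 0.00268). The median change of the members was -1.43, against 0.01 for all genes tested. As the RNA is from sorted but mixed cells, fewer cells of a type and less RNA per cell cannot be told apart in this or any later marrow comparison.

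Both Gpr183 probe sets fell, at -0.71 ± 0.19 (1457691_at, adjusted p = 0.0203) and -1.40 ± 0.21 (1437356_at, adjusted p = 0.000556 over probe sets), where 6.41% of probe sets were called lower. The first of these calls was lost without wild-type array 1 (adjusted p = 0.0764), wild-type array 2 (adjusted p = 0.0519) or knockout-labelled array 1 (adjusted p = 0.0897). With all 21 arrays in the fit it was lost too (adjusted p = 0.0529), as was that of S1pr1 (adjusted p = 0.12). On values as deposited, where the knockout-labelled arrays are brighter as a whole and the median gene moved by 0.30, the calls of Cxcr4, S1pr1 and Gpr183 1457691_at were lost and those of Ccr7, Cxcr5, Ccr6 and Klf2 remained.

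Markers of B-cell maturity moved with these receptors. The summed signal of 18 immature and mature B genes ran from 52270 to 58220 on wild-type arrays and from 22380 to 29020 on knockout-labelled arrays, and 15 of the 18 were called lower, with a median change of -1.36. The 14 pro-B and large pre-B genes went the other way, from sums of 27070 to 28800 to sums of 46210 to 54560, with 9 called higher. Sums of 7 core B-lineage genes were 23260 to 24490 in wild-type and 15610 to 20150 in knockout-labelled marrow. Of these, 4 were called lower and 0 higher, with a median change of -0.43. Neutrophil sums, over 14 genes, were 22140 to 27970 and 17550 to 40110, with 0 called and a median change of 0.31. The part of cell make-up in the receptor changes was not tested.

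The transgene without the knockout label was assessed in LAP transgenic against wild-type marrow. The follicle and lymph node receptors were lower: Cxcr5 fell 1.80-fold (-0.85 ± 0.18, adjusted p = 0.02) and Ccr7 fell 1.70-fold (-0.77 ± 0.12, adjusted p = 0.00565). These were 2 of the 7 members, where 1.88% of all genes were called lower. Ccr6 (-1.08 ± 0.30, adjusted p = 0.0681) and S1pr1 (-0.74 ± 0.21, adjusted p = 0.0687) missed the threshold although their arrays did not overlap. Both passed it when each array was centred on its median (adjusted p = 0.0457 and 0.04), and Ccr6 also with an added constant of 16 (adjusted p = 0.0145). Klf2 changed by -0.10 ± 0.16 (95% interval -0.44 to 0.25), Cxcr4 by -0.05 ± 0.09 (-0.25 to 0.15) and Gpr183 1457691_at by -0.17 ± 0.19 (-0.57 to 0.24), with arrays that overlapped wild type. The median change of the members was -0.74.

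The Cxcr5 call was lost without wild-type array 1, 2 or 3 (adjusted p = 0.0745, 0.0663 and 0.0659) or LAP transgenic array 1 (adjusted p = 0.0519), with a change between -0.82 and -0.87 in each case, and with all 21 arrays in the fit (adjusted p = 0.0965). The count of all called genes, 533, fell to as few as 169 when an array was left out. Of the 18 immature and mature B genes, 1 was called lower, with a median change of -0.39. Their sums were 43030 to 46360, below the 52270 to 58220 of the wild-type arrays. LAP transgenic array 3 had the highest neutrophil sum of the series, 72190, and monocyte sums in this group reached 17690 against at most 6060 in wild type. The GAPDH 3′ to 5′ signal ratio, a measure of RNA integrity, was 0.969 ± 0.0847 (SD) here and 0.786 ± 0.0208 in wild type. The part of these differences in the receptor changes was not tested.

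With both changes, homing receptor transcripts were at their lowest in marrow. Against wild type all 7 members were lower, where 14.7% of all genes were called lower, and the median change was -3.38 against 0.04 for all genes. Cxcr5 fell 43.9-fold (-5.46 ± 0.18, adjusted p = 2.57e-10) and Ccr6 14.9-fold (-3.90 ± 0.30, adjusted p = 7.22e-07). Because both are near the dim limit there, these folds depend on the added constant: with 1 or 16 in place of 4 they were 55.2 and 24.7 for Cxcr5 and 19.3 and 8.43 for Ccr6. Ccr7 fell 23.9-fold (-4.58 ± 0.12, adjusted p = 5.69e-11) and Klf2 10.4-fold (-3.38 ± 0.16, adjusted p = 8.2e-09). The Ccr7 fold depended on the constant too, at 27.0 with 1 and 16.5 with 16. S1pr1 fell 3.94-fold (-1.98 ± 0.21, adjusted p = 1.15e-05) and Cxcr4 fell 1.60-fold (-0.68 ± 0.09, adjusted p = 9.93e-05). Gpr183 fell 3.19-fold by 1457691_at (-1.67 ± 0.19, adjusted p = 2.01e-05) and 11.3-fold by 1437356_at (-3.49 ± 0.21, adjusted p = 3.92e-08 over probe sets, where 12.6% were called lower). With a constant of 1 or 16 these folds were 3.47 and 2.50 for 1457691_at and 12.7 and 7.87 for 1437356_at. The sums of the immature and mature B genes were 6150 to 7660, with 17 of 18 called lower and a median change of -3.51. Of 7 core B-lineage genes 4 were lower and 1 higher, with a median change of -0.75 and sums of 14480 to 15460 against 23260 to 24490. Of 9 plasmacytoid dendritic cell genes 7 were lower and 2 higher, with sums of 4984 to 5422 against 14320 to 15580. Other lists held genes that were higher: 9 of the 14 pro-B and large pre-B genes were higher and 1 lower, all 7 megakaryocyte genes were higher, with sums of 7091 to 10610 against 2587 to 2727, and 3 of 14 neutrophil genes were higher, with sums of 41750 to 53720. The part of these lists in the members' change was not tested. Of the 4 defining immature and mature B markers, Ms4a1 (mean level 9.72), Cd22 (9.17) and Cr2 (4.95) were above the dim limit on all 3 doubly changed arrays. Fcer2a, the CD23 antigen of mature follicular B cells, was above it on 1 of the 3.

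**Figure D2:**
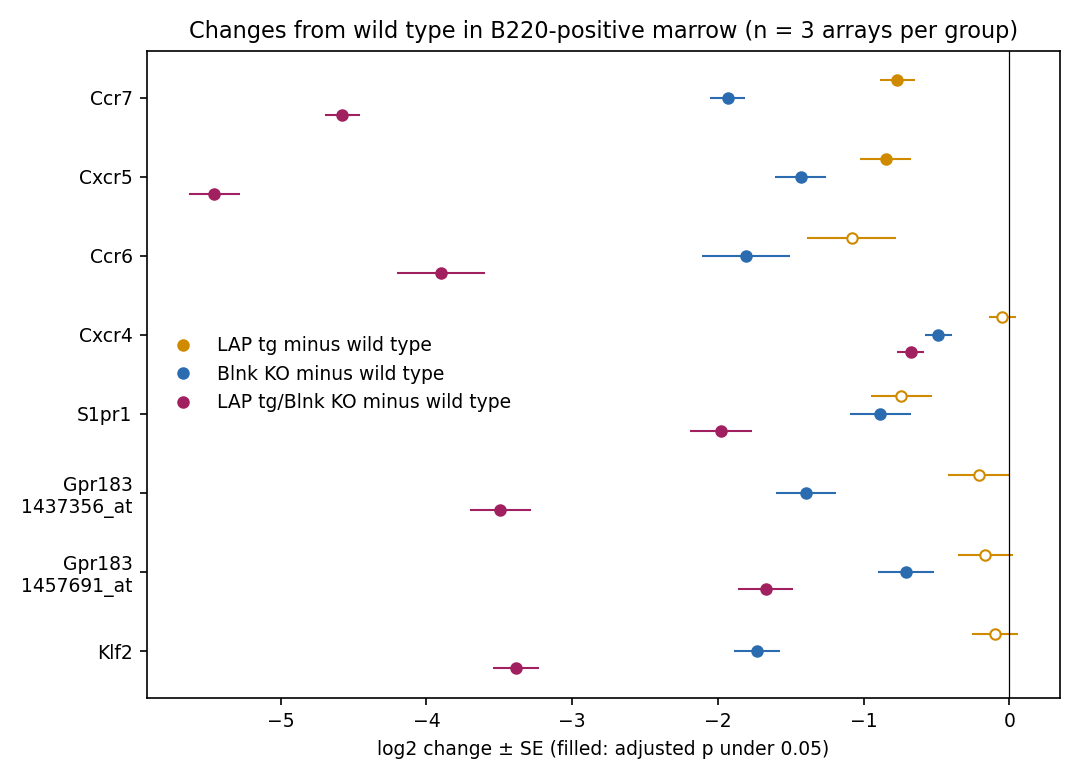
Log2 change from wild-type marrow (horizontal axis) ± SE for each of the 8 probe sets (vertical axis) in LAP transgenic, knockout-labelled and doubly changed marrow, 3 arrays per group, with filled points at an adjusted p under 0.05. The doubly changed points lie farthest left for every probe set, from -0.68 for Cxcr4 to -5.46 for Cxcr5.

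Doubly changed against knockout-labelled marrow gives the change with the transgene where the knockout label is present. Of the 7 members, 6 were lower, where 4.35% of all genes were called lower. The follicle receptor Cxcr5 was lower, at -4.03 ± 0.18 (SE, adjusted p = 2.54e-08). So were Ccr7 (-2.65 ± 0.12, adjusted p = 3.19e-08) and Ccr6 (-2.09 ± 0.30, adjusted p = 0.000837). Klf2 (-1.65 ± 0.16, adjusted p = 2.52e-05), S1pr1 (-1.09 ± 0.21, adjusted p = 0.00572) and Gpr183 by 1457691_at (-0.96 ± 0.19, adjusted p = 0.00655) were lower too. With all 21 arrays in the fit the S1pr1 call was lost (adjusted p = 0.0662). Cxcr4 changed by -0.19 ± 0.09 (95% interval -0.39 to 0.01, adjusted p = 0.27), and its groups overlapped. Of the 18 immature and mature B genes 16 were lower too, with a median change of -1.65 and sums of 6150 to 7660 against 22380 to 29020. Of the 9 plasmacytoid dendritic cell genes 7 were lower, with a median change of -1.20 and sums of 4984 to 5422 against 9525 to 13380. All 7 megakaryocyte genes were higher, with sums of 7091 to 10610 against 2650 to 5806. Sums of the 14 pro-B and large pre-B genes, 52640 to 56120, overlapped those of knockout-labelled marrow. The part of these lists in the members' change was not tested.

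Against LAP transgenic marrow, which it shares the transgene with, doubly changed marrow was lower for all 7 members, where 12.5% of all genes were called lower. The changes ran from -0.63 ± 0.09 for Cxcr4 (adjusted p = 0.000216) to -4.61 ± 0.18 for Cxcr5 (adjusted p = 2.35e-09). Between them lay Ccr7 at -3.81 ± 0.12, Klf2 at -3.29 ± 0.16, Ccr6 at -2.82 ± 0.30, Gpr183 1457691_at at -1.51 ± 0.19 and S1pr1 at -1.24 ± 0.21. On values as deposited the Cxcr4 change was -0.22 (adjusted p = 0.173), where the median gene moved by 0.40. In the same comparison 17 of 18 immature and mature B genes were lower, with a median change of -3.01, and 5 of 9 plasmacytoid dendritic cell genes were lower and 1 higher. Of the pro-B and large pre-B genes 11 of 14 were higher, and all 7 megakaryocyte genes were higher. The part of these lists in the members' change was not tested.

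The interaction term tests whether the LAP change differs between knockout-labelled and wild-type marrow. It was negative and past the threshold for 3 of the 7 members, where 1.24% of all genes were called in that direction. For Cxcr5, the LAP and knockout label changes measured alone sum to -2.28, and the change with both was -5.46, a difference of -3.18 ± 0.25 (adjusted p = 3.22e-05). With an added constant of 1 or 16 that difference was -3.49 or -2.41. For Ccr7 the sum was -2.70 and the change with both -4.58, a difference of -1.88 ± 0.17 (adjusted p = 0.000103). A constant of 1 or 16 gave -2.03 or -1.44 for this difference. Klf2 showed no call with LAP alone, yet the sum of -1.83 compared with -3.38 for both, a difference of -1.55 ± 0.23 (adjusted p = 0.00243). The Gpr183 probe sets disagreed: 1437356_at gave -1.89 ± 0.29 (adjusted p = 0.00496 over probe sets, where 0.866% were called lower) and 1457691_at gave -0.80 ± 0.27 (adjusted p = 0.176). Their average gave -1.34 (adjusted p = 0.017).

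Ccr6, S1pr1 and Cxcr4 did not pass the interaction test. Their interaction estimates were -1.01 (95% interval -1.94 to -0.08, adjusted p = 0.29), -0.35 (-0.99 to 0.29, adjusted p = 0.641) and -0.14 (-0.43 to 0.14, adjusted p = 0.671). Among the 18 immature and mature B genes the interaction was called lower for 13, with a median of -1.25, beside a median of -1.01 for the members. It was called lower for 3 of the 9 plasmacytoid dendritic cell genes and for none of the pro-B, neutrophil or megakaryocyte genes. Their part in the interaction of the members was not tested.

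**Figure D3:**
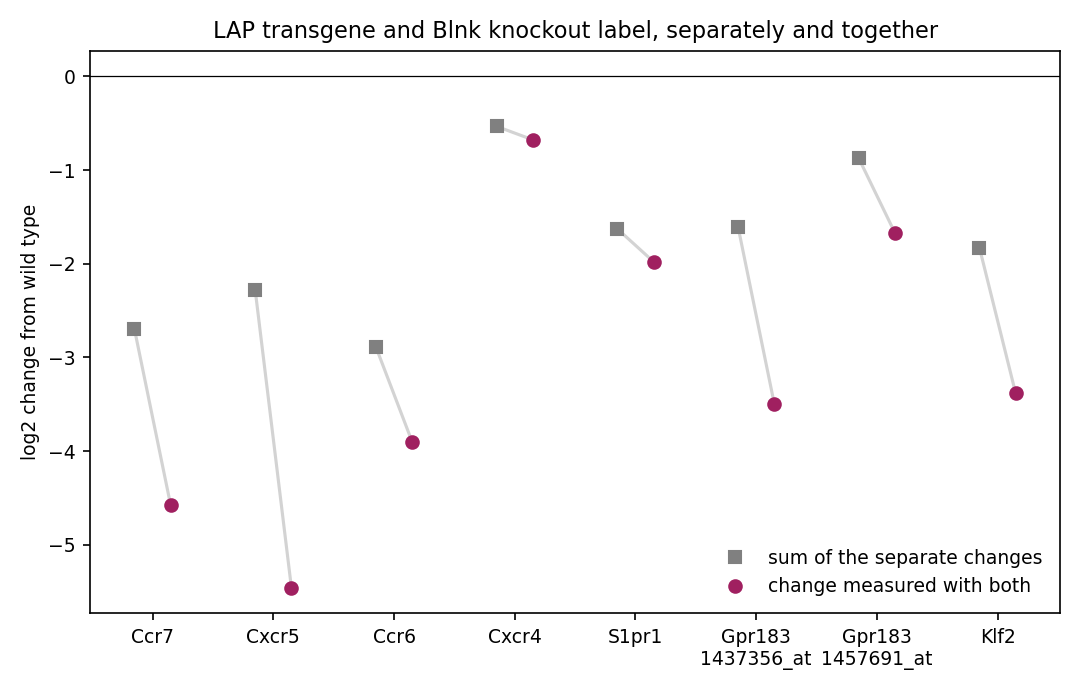
For each probe set (horizontal axis), the sum of the separate LAP and knockout label changes from wild type (squares) and the change measured with both (circles), in log2 units (vertical axis). The circles lie below the squares for all 8 probe sets, by 3.18 for Cxcr5 and by 0.14 for Cxcr4.

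Within LB31 the comparisons ask whether these transcripts differ with the Blnk cDNA label in the leukaemia line, and whether they do so with mutant YF too. Ccr7, Cxcr5 and Gpr183 1437356_at were too dim to test, which left 5 of the 7 members. In BLNK-labelled against empty-vector cells, Cxcr4 rose 1.48-fold (0.57 ± 0.09, adjusted p = 0.00047), where 7.34% of all genes were called higher. It was higher than with the empty vector under all 17 alternative settings, with changes from 0.50 to 0.75. Klf2 fell 1.34-fold (-0.42 ± 0.13, adjusted p = 0.0413), where 8.55% of genes were called lower, but this call was lost in 10 of the 17 settings. These include leaving out empty-vector array 1 (adjusted p = 0.116) or BLNK-labelled array 1, 2 or 3 (adjusted p = 0.0856, 0.112 and 0.0886). Changes of S1pr1 (0.00 ± 0.48, 95% interval -1.04 to 1.03), Ccr6 (-0.22 ± 0.51, -1.32 to 0.88) and Gpr183 1457691_at (0.16 ± 0.31, -0.52 to 0.83) had wide intervals that include 0.

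In YF-labelled against empty-vector cells, 0 of the 5 tested members were called by limma, where 0.345% of all genes were. That background, 45 genes, became 1115 without empty-vector array 1 and 1 to 15 without any other array, and no member was called in these fits either. Klf2 changed by -0.37 ± 0.13 (95% interval -0.65 to -0.09, adjusted p = 0.199). Cxcr4 changed by 0.14 ± 0.09 (95% interval -0.04 to 0.33, adjusted p = 0.464). BLNK-labelled against YF-labelled cells gave 1 call, Cxcr4, which was 1.34-fold higher (0.43 ± 0.09, adjusted p = 0.00599), where 3.92% of genes were called higher. This call was lost on values as deposited (0.21, adjusted p = 0.63), with median centring (0.33, adjusted p = 0.251) and without the intensity trend (adjusted p = 0.0578). Klf2 differed by -0.05 ± 0.13 between BLNK-labelled and YF-labelled cells (95% interval -0.33 to 0.23). Neutrophil sums were at most 163.5 on every LB31 array, against at least 17550 in marrow. Sums of the immature and mature B genes were 2420 to 2578 on BLNK-labelled arrays and 2867 to 3079 with the empty vector, with 2 of 15 tested genes higher and 2 lower. Sums of the pro-B and large pre-B genes were 31190 to 31290 on BLNK-labelled, 35230 to 35700 on YF-labelled and 35870 to 36340 on empty-vector arrays. Of the 11 tested, 8 were lower in BLNK-labelled than in empty-vector cells, 7 were lower than in YF-labelled cells, and 1 was lower in YF-labelled than in empty-vector cells. The part of these lists in the members' changes was not tested.

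LB31 with the empty vector was set against knockout-labelled marrow, since both are labelled as Blnk knockout, although the transgene-linked Cebpb probe set was bright only in LB31 of the pair. A leukaemia line and sorted marrow that the series calls non-neoplastic were compared here, so leukaemic state, culture and cell mixture cannot be told apart. Of the 7 members 6 were lower in LB31, where 29.9% of all genes were called lower. Ccr7 and Gpr183 1437356_at were below the dim limit on every empty-vector array and passed the filter through marrow alone, so only a bound can be given, taken as the marrow mean over the dim limit. Ccr7, which is among the 6, was at least 8.94-fold lower. No p-value is given with a bound, because the test used levels below the limit. Cxcr5, above the limit on 1 of the 3 empty-vector arrays, changed by -4.19 ± 0.32 (adjusted p = 2.69e-10). Klf2 (-2.68 ± 0.15, adjusted p = 1.21e-12), S1pr1 (-2.51 ± 0.40, adjusted p = 1.25e-05) and Cxcr4 (-1.90 ± 0.09, adjusted p = 2.15e-13) were lower as well. The Ccr6 change of -1.44 ± 0.45 (adjusted p = 0.00854) lost its call without empty-vector array 3 (-0.94, adjusted p = 0.0805). Gpr183 1457691_at changed by -0.51 ± 0.27 (adjusted p = 0.108), and passed without empty-vector array 2 (-0.87, adjusted p = 0.00611), on values as deposited (adjusted p = 0.000203) and with median centring (adjusted p = 0.0377). Its other probe set was at least 5.77-fold lower (adjusted p = 2.42e-11 over probe sets), where 27.6% of probe sets were called lower. Of the marker lists, 17 of 18 immature and mature B genes, 9 of 14 pro-B and large pre-B genes and 13 of 14 neutrophil genes were lower in LB31. So were 10 of 11 monocyte and macrophage genes and all 7 megakaryocyte genes, with 0 higher in either list. The part of these lists was not tested.

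Against doubly changed marrow 4 of 7 members were lower, where 30.4% of all genes were called lower. Of these, Ccr7 was at least 1.36-fold lower by the same bound, given without a p-value. The others were Cxcr4 (-1.70 ± 0.09, adjusted p = 1.57e-12), S1pr1 (-1.33 ± 0.40, adjusted p = 0.00685) and Klf2 (-0.95 ± 0.15, adjusted p = 9.36e-06). Cxcr5 differed by -0.12 ± 0.32 (95% interval -0.79 to 0.55) and Ccr6 by 0.56 ± 0.45 (-0.37 to 1.5), with overlapping arrays near the dim limit. Without empty-vector array 3 the Ccr6 difference was 1.08 (adjusted p = 0.0457). The Gpr183 probe sets disagreed in direction. The change of 1457691_at was 0.41 ± 0.27 (adjusted p = 0.204), and 0.71 (adjusted p = 0.028) without empty-vector array 1. By the bound, 1437356_at was at least 1.33-fold lower. Of the marker lists, 14 of 18 immature and mature B genes, 12 of 14 pro-B and large pre-B genes and 13 of 14 neutrophil genes were lower in LB31. So were all 11 monocyte and macrophage genes and all 7 megakaryocyte genes. The part of these lists was not tested. Both comparisons use the same empty-vector arrays.

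**Figure D4:**
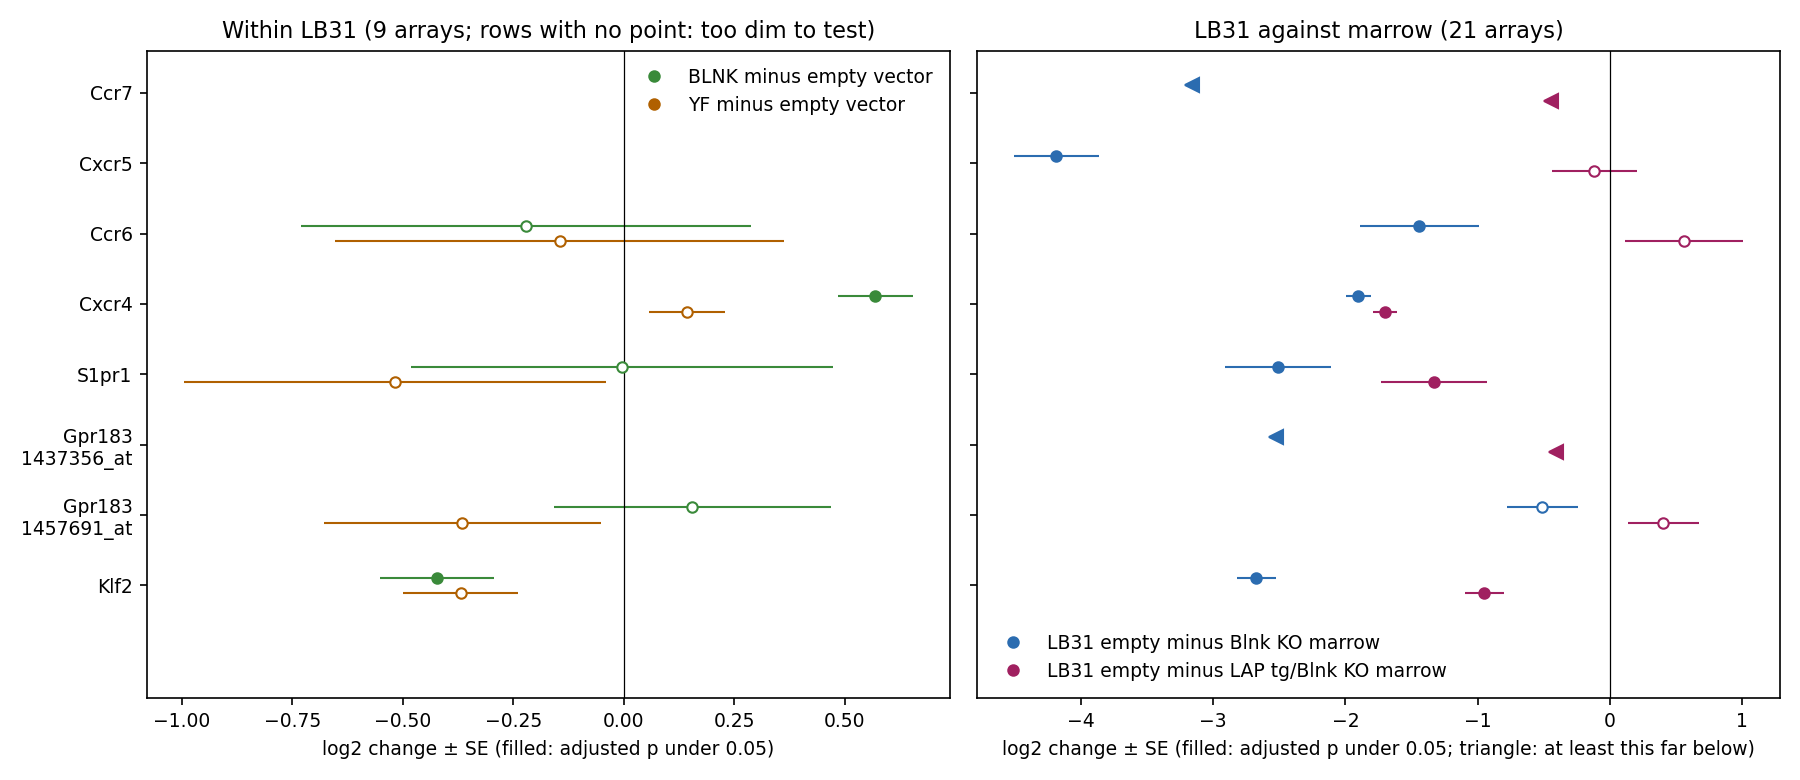
Log2 changes ± SE (horizontal axes) of the probe sets (vertical axis), within LB31 on the left and for empty-vector LB31 against marrow on the right, with filled points at an adjusted p under 0.05. Triangles give bounds for Ccr7 and Gpr183 1437356_at, which lay below the dim limit in LB31. Cxcr4 in BLNK-labelled cells stands at 0.57, and Cxcr4 in empty-vector LB31 is lower than in either marrow group, at -1.90 and -1.70.

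Other genes of the same pathways were counted from fixed lists. Among 15 tested other chemokine receptors, 0 were called in knockout-labelled against wild-type marrow, where 2 had to be left out as too dim. In doubly changed against wild-type marrow 1 was higher and 2 were lower: Ccr2, a monocyte receptor, rose by 1.16 ± 0.32, and Ccr1 (-2.39 ± 0.40) and the gut-homing receptor Ccr9 (-2.27 ± 0.30) fell. Of 11 other sphingosine 1-phosphate and retention receptors, 4 were lower in knockout-labelled and 5 in doubly changed marrow, and none was higher in either. Among them were the lysophospholipid receptor P2ry10, at -1.67 ± 0.23 and -4.78 ± 0.23, and Cnr2, a cannabinoid receptor of B cells, called at -1.26 ± 0.14 and -3.04 ± 0.14. S1pr3 fell by 1.59 ± 0.22 in knockout-labelled marrow. Both P2ry10 (-2.03 ± 0.33, adjusted p = 0.00588) and Cnr2 (-1.41 ± 0.20, adjusted p = 0.00214) passed the interaction test, as 2 of the 11.

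Of 10 tested ligands and ligand enzymes, 1 changed in knockout-labelled marrow: Spns2, the exporter of sphingosine 1-phosphate, fell by 1.20 ± 0.21. Of 27 genes of receptor signalling and desensitization, 7 were lower and 1 higher there. Rgs13, which limits chemokine receptor signalling in B cells, was below the dim limit on all knockout-labelled arrays and at least 3.65-fold lower than in wild type, and Rgs18 rose by 0.76 ± 0.10. Of 11 homing adhesion molecules, 2 were lower and 1 was higher: Icam2 fell by 0.96 ± 0.11, the gut-homing integrin subunit Itgb7 fell by 0.91 ± 0.17, and the selectin ligand Selplg rose by 0.59 ± 0.12. Among 22 Klf family members and Klf2 regulators 5 were lower and 1 was higher. Klf11 fell by 1.48 ± 0.23 and Klf3 fell by 1.03 ± 0.15, and Hdac7, a class II histone deacetylase that represses MEF2 targets, rose by 0.98 ± 0.14. In LAP transgenic marrow Klf4 (1.03 ± 0.26, adjusted p = 0.0459) and Klf13 (0.54 ± 0.09, adjusted p = 0.00731) were higher, and none of the 22 was lower.

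In BLNK-labelled against empty-vector LB31, 2 of 7 tested sphingosine 1-phosphate and retention receptors were lower, S1pr3 (-1.92 ± 0.16, adjusted p = 2.28e-06) and S1pr4 (-1.24 ± 0.07, adjusted p = 8.96e-08). Cd69, whose product holds S1PR1 inside the cell, was higher (0.54 ± 0.12, adjusted p = 0.00751). The integrin subunits Itgal (-1.33 ± 0.23), Itga4 (-0.64 ± 0.07) and Itgb2 (-0.42 ± 0.07) were among 4 lower of 9 adhesion molecules, and 2 were higher. Of 24 signalling genes 3 were higher and 9 lower, with Rgs2 at 1.13 ± 0.08, Rgs3 at -1.01 ± 0.15 and Grk5, a receptor kinase, at -0.95 ± 0.10. Among 21 Klf family and regulator genes 2 were higher and 7 lower, including Mef2c (0.87 ± 0.08), Foxo1 (-0.65 ± 0.08) and Hdac7 (-0.52 ± 0.07). In YF-labelled cells, 2 of the 24 signalling genes were called and 0 of the genes of the other pathway lists.

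The genes whose levels ran most like each member over the 21 arrays were found by Pearson's r among 14655 genes, as a description. The arrays share large differences between marrow and LB31, and r reads those differences too. For Ccr7 these were Cd74 (0.993), Fcrl1 (0.992) and Ralgps2 (0.991), and for Cxcr5 they were Fcer2a (0.986), H2-DMb2 (0.980) and Iglv1 (0.974). Klf2 ran most like 4930426D05Rik (0.995), Cd55 (0.993) and Ccr7 (0.989). Ccr6 ran most like Ciita (0.943), Mif4gd (0.940) and Mllt6 (0.939), and S1pr1 like Tapbpl (0.956), Ermard (0.953) and Neurl3 (0.952). The closest to Cxcr4 were Gmfb (0.991), Zscan26 (0.990) and Rab24 (0.989). Gpr183 by 1457691_at had lower values, with Phlpp2 (0.895), Fam169b (0.889) and Swap70 (0.887).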

How the data were processed

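RNA of 21 samples, from 100 ng of total RNA each, was measured on 1-colour Affymetrix Mouse Genome 430 2.0 arrays, per the labels. The deposited values are probe set intensity values on a linear scale, made with MAS5 (version not given) according to the submitters' processing notes. The sources used here do not say whether the authors scaled the arrays. Where a gene had several probe sets, the one brightest on average over the 21 arrays stood for it. Intensities were turned to log2(signal + 4) and quantile normalized within each fit: 12 marrow, 9 LB31 or all 21 arrays. This removes any true difference in total message. The dim limit was the 40th percentile of each array, and a probe set had to exceed it on 3 or more arrays to be tested, which left 13342, 13034 and 14655 genes. All 7 members passed in marrow and over all arrays, and 5 in LB31. Passing can rest on the bright group alone.

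Groups were compared with lmFit and eBayes of limma 3.58.1 in R 4.3.3, two-sided and with a trend on intensity, and with Benjamini-Hochberg adjustment over all genes of a fit, or over all probe sets where so stated. Adjusted p under 0.05 was called. The code was tested on simulated data. Levels of different genes are not compared, since probes differ in response. A group below the dim limit on all 3 arrays gives only a bound, with that limit in place of its level. The text names every member, the genes changed by design, up to 3 called genes with the largest change per pathway list and comparison, and the 3 genes most like each member. Others are not analysed here. The members and lists were chosen with earlier results of these data known. Of the same-numbered arrays of different groups, deviations from group means correlated with a median r of 0.01 in marrow. Of these 18 pairs 2 had r over 0.1, as did 1 of 36 pairs with different numbers. This cannot exclude a pairing by number, which the labels do not state, and the main fits used none. Alternatives were other normalizations, added constants of 1 and 16, other filters and probe set rules, no trend, other samples in the fit, a replicate block, and leaving out each array.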

Additional observations from a re-analysis of the deposited data

Results flagged for a closer look

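In 4 cases the change with the LAP transgene differed between knockout-labelled and wild-type marrow by the interaction test in limma. These were 3 of the 7 members, where 1.24% of all genes were called in that direction, and 1 other probe set. For Cxcr5 the difference was -3.18 ± 0.25 (SE, adjusted p = 3.22e-05), and for Ccr7 it was -1.88 ± 0.17 (adjusted p = 0.000103). For Klf2 it was -1.55 ± 0.23 (adjusted p = 0.00243). For the Gpr183 probe set 1437356_at, which does not represent the gene, it was -1.89 ± 0.29 (adjusted p = 0.00496 over probe sets, where 0.866% were called lower). The probe set that represents Gpr183, 1457691_at, was not called (-0.80 ± 0.27, adjusted p = 0.176). In each of the 4 cases the fall with LAP was larger where the knockout label was present.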

How the results depend on the processing

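Over the 79 tested member changes, 1362 recomputed values were compared with the reported ones: 1322 kept their side of the threshold, 29 lost the call, 10 gained one and 1 reversed with a call. Values that changed sign without a call in either fit are counted among the 1322. Ccr6 in BLNK-labelled against YF-labelled cells, for example, ran from -0.43 to 0.42. The reversed one was Gpr183 in empty-vector LB31 against doubly changed marrow, at -0.61 (adjusted p = 0.00545) when its probe sets were averaged, since 1437356_at has the opposite sign there. For knockout-labelled against wild-type marrow, 4 members in place of 7 were called on values as deposited. For LAP transgenic against wild-type marrow the count was 4 with median centring and 3 with an added constant of 16. It was 1 when all 21 arrays were fitted together, and 1 to 2 with an array left out. For BLNK-labelled against the empty vector, 1 member in place of 2 was called on values as deposited, with median centring, without the filter, without the trend, with all arrays fitted together and with the replicate block, and 1 to 2 with an array left out. For BLNK-labelled against YF-labelled cells, 0 in place of 1 were called as deposited, with median centring and without the trend. The replicate block ended 1 member call, Klf2 in BLNK-labelled against the empty vector (-0.42, adjusted p = 0.0595). Scaling moved the split of all calls: as deposited, 3215 genes were higher and 377 lower in knockout-labelled against wild-type marrow, in place of 1118 and 1159, and 4724 and 784 in doubly changed against wild-type marrow, in place of 2204 and 1959. For BLNK-labelled against the empty vector the split was 358 and 147 as deposited and 1500 and 310 with median centring, in place of 957 and 1115. For YF-labelled against the empty vector 45 genes were called, from 1 without the trend to 1345 with median centring, 1115 without empty-vector array 1 and 1 to 15 without any other array. The cause of these shifts was not tested. The 3 arrays per group limit precision, and signals near the dim limit have no reliable order.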
